A study of Mus musculus with 16 samples.

Results

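Dietary iron enters the body through the duodenum, and 9 mouse genes of that route were followed here: the ferric reductase Cybrd1, the importer Slc11a2, the ferritin subunits Fth1 and Ftl1, the exporter Slc40a1 with its ferroxidase partner Heph, the transferrin receptor Tfrc, the hepcidin relative Hamp2 and the heme-degrading enzyme Hmox1. They were chosen by name, with earlier results of these data known, and are 9 of the 55359 genes in the count table. All 9 had counts. RNA was sequenced from the duodenum and the ileum of 8 adult male C57BL/6N mice fed standard chow, in 4 groups of 4 libraries. Mutants (animals NFVCT27, NFVCT38, NFVCT153 and NFVCT190) were Neurog3f/f; Villin-CreERT2: both copies of Neurog3, which enteroendocrine cells need to form, were floxed, and the recombinase was driven by the promoter of the epithelial gene Villin and switched on by tamoxifen. Controls (NF17, NF29, NF32 and NF152) were Neurog3f/f without the transgene, so effects of the recombinase and of Neurog3 loss cannot be told apart. Tissue was collected 18 weeks after tamoxifen. The labels state that time once for both genotypes, so whether controls also received tamoxifen is not known here. Each animal gave both tissues, and the sources used here do not give the part or layers of the wall taken.

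Total counts per library ran from 8213889 to 35076714. Neurog3 had 0 counts in all 8 mutant libraries, against 8 to 27 in the control ileum and 12 to 37 in the control duodenum. The tissue labels held: 4 ileal identity genes summed to at most 3.26 CPM (counts scaled to a common effective library size) in any duodenal library, and to at least 1540 CPM in every ileal one. Duodenal libraries also carried transcripts of pancreatic acinar cells, which make digestive enzymes and are no part of the intestinal wall. A list of 17 acinar genes took 16.5, 8.70, 10.3 and 7.35% of all counts in control duodenum and 13.1, 2.01, 2.34 and 20.8% in mutant duodenum (animals in the order above), and at most 0.927% in the ileum. Since these are bulk libraries of tissue, fewer cells of a type and less RNA per cell cannot be told apart.

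As background, iron in the gut lumen is reduced at the brush border by Cybrd1 and carried into the enterocyte by Slc11a2 as ferrous iron. Inside, it is either stored in ferritin, a shell of heavy (Fth1) and light (Ftl1) subunits, or exported at the basal side by ferroportin, the product of Slc40a1, and oxidised by hephaestin, the product of Heph, for loading onto transferrin. Hepcidin, a liver hormone, lowers export by removing ferroportin. Tfrc takes up transferrin-bound iron from the blood side, mostly in dividing cells. Several of these messages carry an iron-responsive element, a short hairpin that iron regulatory proteins bind when iron is low. Binding in a 5′ UTR blocks translation, and binding in a 3′ UTR protects the message from decay. Iron can therefore act on ferritin and ferroportin protein without a change in the RNA measured here, whereas for Tfrc it acts on the RNA.

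The hairpins are shown because they tell apart the members whose translation iron is known to control from Tfrc, whose RNA it is known to destabilise. Transcripts of the GENCODE M21 annotation (genome build GRCm38, not the mm39 build of the counts) were searched on the gene strand for a bulged C, 5 stem bases, the loop CAGTGN and 5 bases pairing with the stem, G-T pairs allowed. A match lay in a UTR of 159 of 21877 coding genes (0.727%) and of 4 of the 9 members. The rule is strict, and a gene without a match can still hold an element: Slc11a2 is known to have a message form with a variant one. Each sequence is written 5′ to 3′ with the loop in capitals.
Fth1, 5′ UTR, chr19:9982732-9982760, plus strand: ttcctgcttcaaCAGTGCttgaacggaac
Ftl1, 5′ UTR, chr7:45459779-45459807, minus strand: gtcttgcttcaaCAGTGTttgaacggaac
Slc40a1, 5′ UTR, chr1:45925465-45925493, minus strand: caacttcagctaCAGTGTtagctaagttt
Tfrc, 3′ UTR, chr16:32631219-32631247, plus strand: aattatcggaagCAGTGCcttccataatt
Tfrc, 3′ UTR, chr16:32631598-32631626, plus strand: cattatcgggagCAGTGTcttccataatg
Tfrc, 3′ UTR, chr16:32631663-32631691, plus strand: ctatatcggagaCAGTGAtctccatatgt
Tfrc, 3′ UTR, chr16:32631710-32631738, plus strand: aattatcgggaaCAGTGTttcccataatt

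The first comparison asked how the 9 genes differ between the ends of the small intestine in control mice. The storage genes Fth1 and Ftl1, the importer Slc11a2 and the exporter Slc40a1 were lower in the ileum, as was the hepcidin relative Hamp2. Tfrc rose, and Heph, Cybrd1 and Hmox1 did not pass the test. That is 5 lower and 1 higher of 9. Hamp2 held 2 counts over the 4 control ilea, so it entered the test through its duodenal counts alone. Its place among the 5, in this count and the next, is no separate support. Over all 14976 genes tested, 18.7% were called lower and 17.1% higher (edgeR's quasi-likelihood test with Benjamini-Hochberg adjustment, the test behind every adjusted p below, called under 0.05). Without overlap between the libraries of the tissues, 5 members were lower and 1 higher, against 16.9% and 17.9% of all genes.

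**Figure D1:**
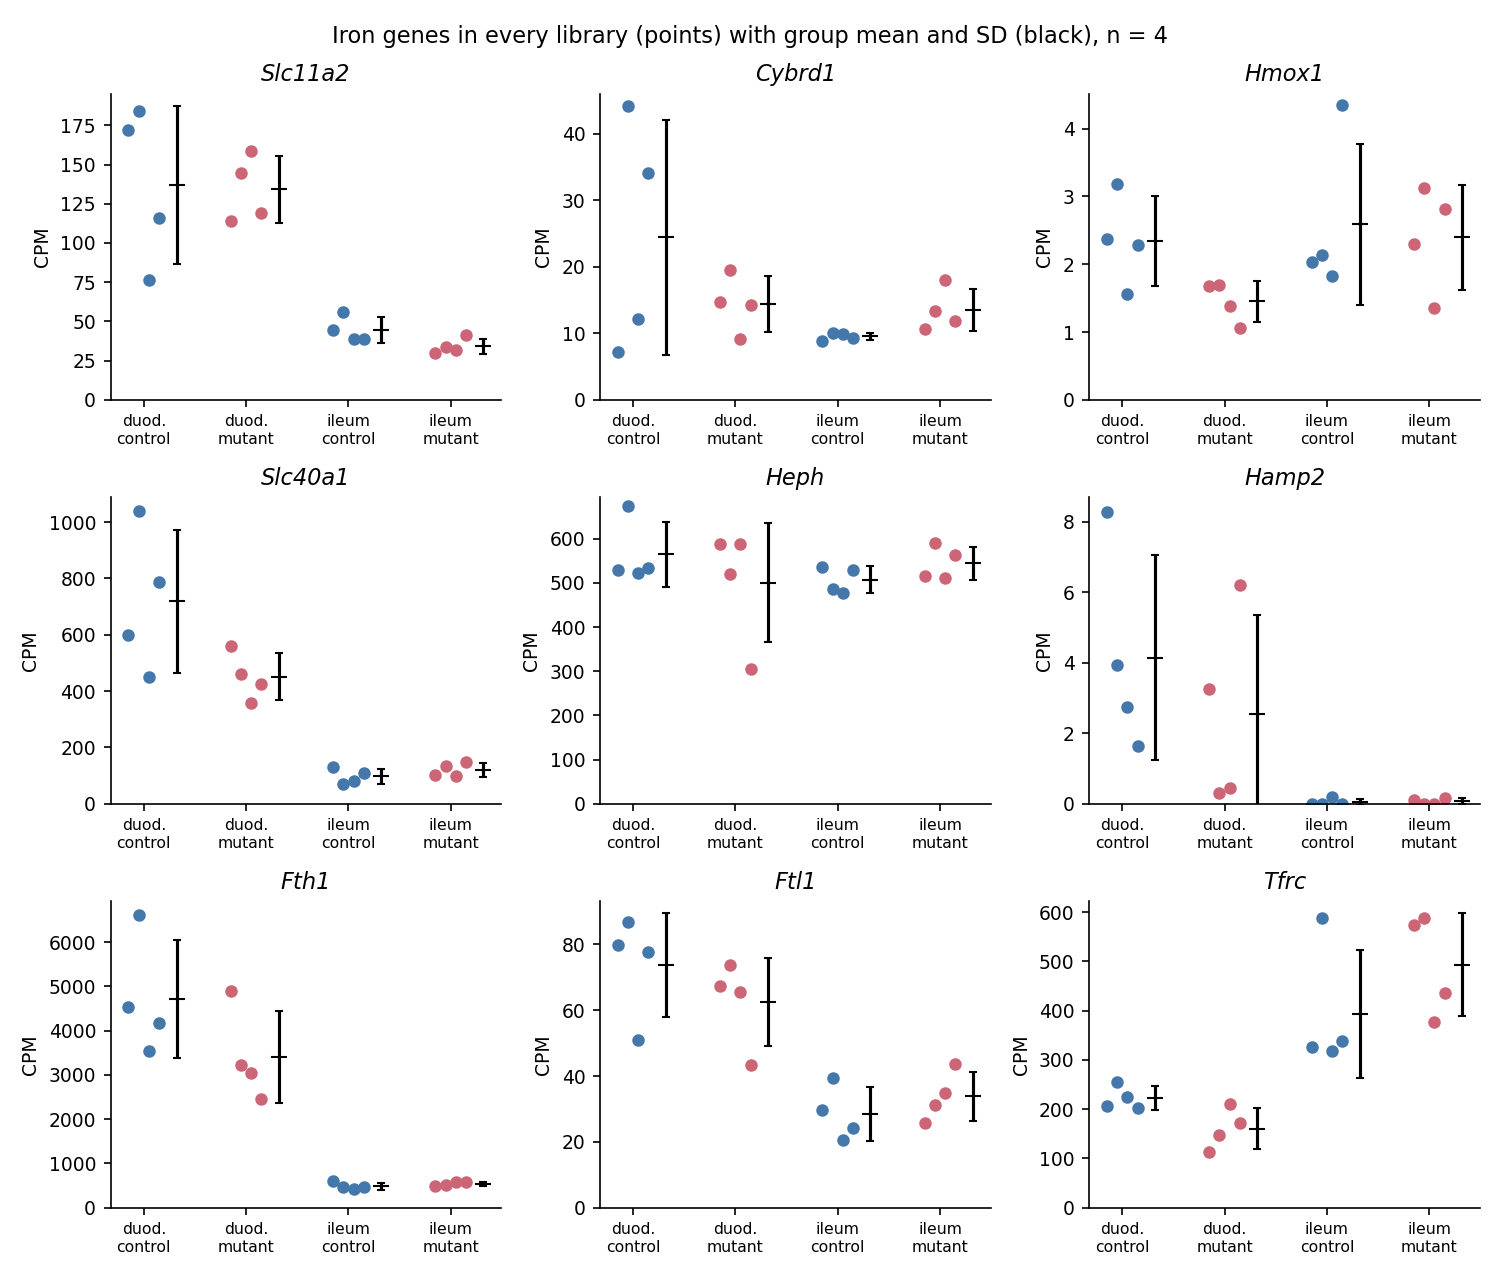
CPM of each of the 9 iron genes (vertical axes from 0, scales differing between genes) in the 16 libraries, by tissue and genotype; points are libraries, and black bars give the group mean and SD (the lower SD bar of Hamp2 is clipped at 0). Fth1 and Slc40a1 stand far higher in both duodenal groups than in either ileal group, and Tfrc stands lower.

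Among the storage genes Fth1 fell further than Ftl1 by fitted fold. In control duodenum it stood at 4524, 6607, 3545 and 4171 CPM in NF17, NF29, NF32 and NF152, and in the ileum of the same animals at 602.9, 467.9, 421.0 and 465.7 CPM. The groups were far apart, and the ileum was lower in 4 of 4 animals. The log2 fold change was -3.28 (SE 0.23, adjusted p = 2.93e-07, n = 4 per group, edgeR). Ftl1, the light subunit, stood at 79.9, 86.8, 50.9 and 77.7 CPM in control duodenum and at 29.6, 39.5, 20.6 and 24.2 CPM in control ileum. Its groups did not overlap either (log2 fold change -1.39, SE 0.22, adjusted p = 0.000791, n = 4 per group, edgeR). To set genes side by side, CPM was divided by the joint length of all annotated exons of a gene, in kilobases. That length was 3469 bases for Fth1 and 1340 for Ftl1, and can exceed that of the message made. On this scale Fth1 stood at 1358 ± 382 and Ftl1 at 55.1 ± 11.8 CPM per kilobase in control duodenum (SD, n = 4). Both genes have near-identical processed copies in the genome, and the sources used here do not say how multi-mapping reads were counted. The copies listed under their root symbols held 68 counts against 547205 for Fth1, and 16 against 12472 for Ftl1.

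On the export side Slc40a1 fell toward the ileum and Heph did not pass the test. Slc40a1 stood at 599.0, 1039, 450.0 and 786.5 CPM in control duodenum and at 129.8, 70.7, 81.8 and 110.3 CPM in control ileum. NF29 was the highest of the 4 in the duodenum and the lowest in the ileum. The log2 fold change was -2.89 (SE 0.29, adjusted p = 5.11e-05, n = 4 per group, edgeR). Heph stood at 530.0, 675.2, 521.6 and 534.9 CPM in control duodenum and at 536.9, 487.1, 477.2 and 530.3 CPM in control ileum. Its ranges overlapped, and its log2 fold change of -0.17 (SE 0.13) did not pass the test (adjusted p = 0.317, edgeR). In control duodenum the pair stood close to each other per kilobase of exon, at 79.8 ± 28.2 for Slc40a1 and 73.8 ± 9.58 for Heph. This depends on the exon lengths used, 9000 and 7662 bases. In control ileum they stood at 10.9 ± 2.99 and 66.3 ± 3.93 CPM per kilobase (SD, n = 4).

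On the lumen side, Slc11a2 stood at 172.2, 184.2, 76.3 and 115.7 CPM in control duodenum. In control ileum it stood at 44.2, 56.2, 38.9 and 38.5 CPM, without overlap. Its log2 fold change was -1.64 (SE 0.28, adjusted p = 0.00216, n = 4 per group, edgeR). Cybrd1, the reductase, varied widely among control duodena, at 7.12, 44.1, 12.2 and 34.1 CPM, and little among control ilea, at 8.89, 9.97, 9.95 and 9.31 CPM. NF17 was lower in the duodenum than in its own ileum, and the other 3 animals were higher. The log2 fold change of -1.38 (SE 0.58) missed the threshold (adjusted p = 0.11, edgeR). With 1 library left out it ran from -1.69 to -0.95, with adjusted p up to 0.229 (edgeR). It passed only without the NF17 duodenum (-1.69, adjusted p = 0.0164, edgeR).

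Tfrc, the receptor of the blood side, went the other way. It stood at 206.0, 255.0, 225.2 and 203.4 CPM in control duodenum and at 326.9, 587.3, 319.1 and 338.2 CPM in control ileum. Every ileum was above every duodenum, and NF29 stood apart as the highest ileum. The log2 fold change was 0.81 (SE 0.19, adjusted p = 0.00643, n = 4 per group, edgeR). Hmox1, which opens the heme ring and frees its iron, was low in both tissues, at 2.37, 3.18, 1.56 and 2.28 CPM in control duodenum and 2.03, 2.14, 1.83 and 4.35 CPM in control ileum. Its log2 fold change of 0.15 (SE 0.32) did not pass (adjusted p = 0.74, edgeR).

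Smooth muscle, enterocyte and pancreatic acinar markers moved along the same axis. All 17 acinar genes were called lower in control ileum (median log2 fold change -4.63). Their share of counts was 10.7 ± 4.03% in control duodenum and 0.535 ± 0.419% in control ileum (SD, n = 4). All 8 smooth muscle genes of the list were called higher in control ileum, and their summed level ran from 895 to 2093 CPM in control duodenum and from 2610 to 3788 CPM in control ileum. Of 8 enterocyte genes, 5 were called lower and 1 higher, and of 9 general epithelial genes 4 were called higher and none lower. The part of these shifts in the regional differences of the iron genes was not tested.

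Mutant mice were compared in the same way. Of the 8 members that passed the filter on low counts, 4 were lower in mutant ileum (Fth1, Slc11a2, Slc40a1 and Ftl1) and 1 was higher (Tfrc). Of all 14950 genes, 32.3% were called, 17.1% lower and 15.2% higher. Without overlap, 4 members (Ftl1 not among them, and Hamp2 among them though it did not pass the filter) were lower and 1 was higher. Of all genes tested, 15.2% and 16.8% were. Fth1 stood at 4894, 3224, 3048 and 2448 CPM in mutant duodenum (NFVCT27, NFVCT38, NFVCT153 and NFVCT190) and at 488.0, 519.4, 574.3 and 574.8 CPM in mutant ileum. Its log2 fold change was -2.68 (SE 0.23, adjusted p = 1.14e-05, n = 4 per group, edgeR). Slc40a1 stood at 560.5, 459.1, 359.3 and 426.3 CPM in mutant duodenum and at 101.5, 133.8, 97.3 and 147.2 CPM in mutant ileum (log2 fold change -1.94, SE 0.18, adjusted p = 2.38e-05, edgeR). For both genes every ileum lay below every duodenum.

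Slc11a2 stood at 113.9, 144.8, 158.9 and 119.4 CPM in mutant duodenum and at 29.9, 33.4, 32.02 and 41.1 CPM in mutant ileum. The log2 fold change was -1.99 (SE 0.13, adjusted p = 1.97e-06, n = 4 per group, edgeR). Tfrc stood at 112.4, 147.6, 210.6 and 171.2 CPM in mutant duodenum and at 573.5, 587.9, 376.1 and 436.9 CPM in mutant ileum, again without overlap (log2 fold change 1.60, SE 0.21, adjusted p = 0.000194, edgeR). Ftl1 stood at 67.5, 73.7, 65.4 and 43.3 CPM in mutant duodenum and at 25.7, 31.4, 34.7 and 43.6 CPM in mutant ileum. It was called lower (log2 fold change -0.90, SE 0.17, adjusted p = 0.00244, edgeR), although the ileum was lower in 3 of 4 animals only, the exception being NFVCT190. In that animal the duodenum and the ileum held nearly the same level.

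Cybrd1, Heph and Hmox1 did not pass in mutants. Cybrd1 stood at 14.7, 19.6, 9.14 and 14.2 CPM in mutant duodenum and at 10.7, 13.3, 17.9 and 11.9 CPM in mutant ileum (log2 fold change -0.12, SE 0.24, adjusted p = 0.723, edgeR). Heph stood at 589.4, 520.2, 587.9 and 305.8 CPM in mutant duodenum and at 516.6, 589.6, 511.0 and 562.5 CPM in mutant ileum, the duodenum of NFVCT190 being lower than all 15 other libraries and having the largest acinar share (log2 fold change 0.11, SE 0.18, adjusted p = 0.687, edgeR). Hmox1 stood at 1.67, 1.70, 1.38 and 1.05 CPM in mutant duodenum and at 2.30, 3.12, 1.35 and 2.81 CPM in mutant ileum. Its log2 fold change of 0.72 (SE 0.30) missed the threshold (adjusted p = 0.0812, edgeR). With 1 library left out it ran from 0.57 to 0.90, with adjusted p up to 0.233 (edgeR). It passed only without the NFVCT153 ileum (0.90, adjusted p = 0.0303, edgeR). Leaving out the mutant duodena with the larger acinar share, NFVCT27 and NFVCT190, left the number of members called at 5.

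**Figure D2:**
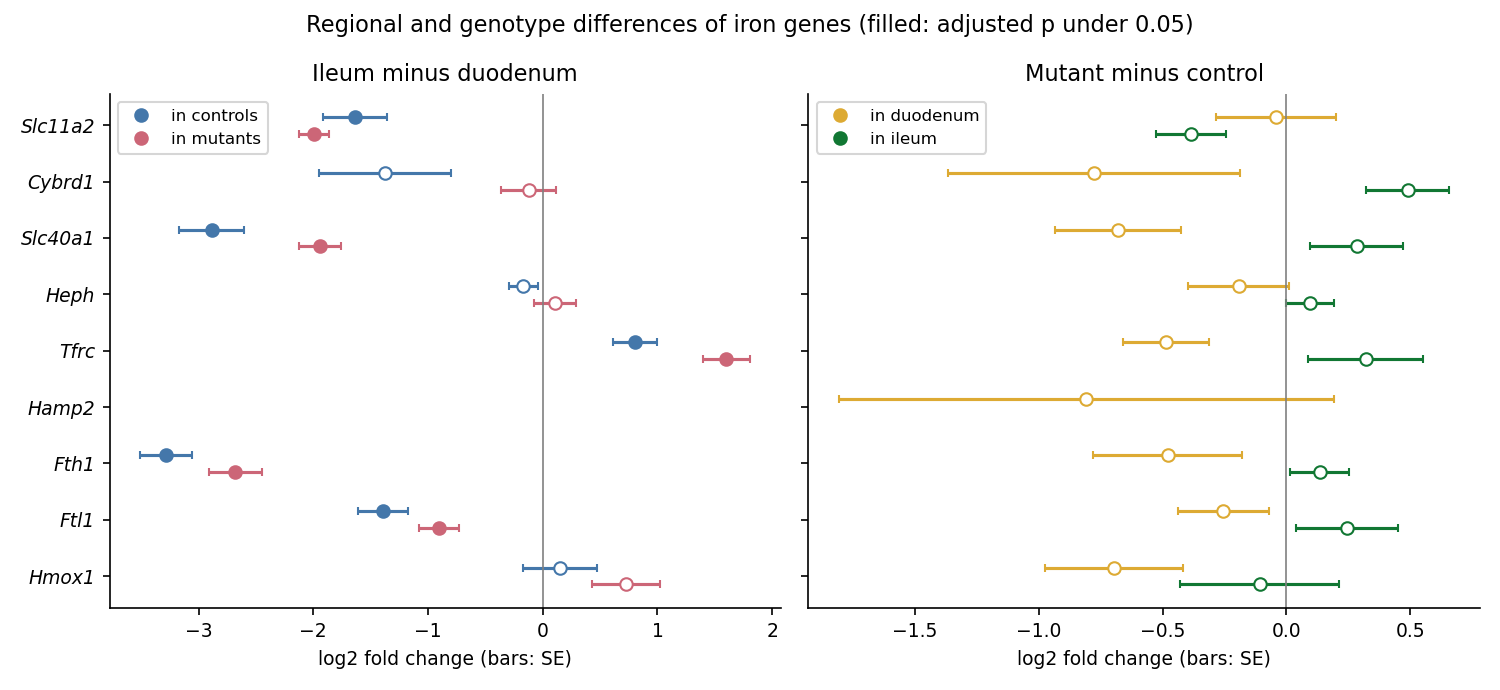
Log2 fold changes (points) with their SE (bars) for the iron genes, ileum minus duodenum on the left and mutant minus control on the right; filled points passed an adjusted p of 0.05. Regional changes of Slc11a2, Slc40a1, Tfrc, Fth1 and Ftl1 are filled in both genotypes, and no genotype difference is filled; Hamp2, near 0 counts in the ileum, is drawn only for the duodenal genotype difference.

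Hamp2 encodes a peptide of the hepcidin family and is known from liver and pancreas. It held 101, 42, 30 and 31 counts in control duodenum (8.27, 3.93, 2.75 and 1.65 CPM) and 39, 5, 15 and 59 counts in mutant duodenum (3.26, 0.293, 0.450 and 6.21 CPM). In the ileum it held 0, 0, 2 and 0 counts in controls and 1, 0, 0 and 3 in mutants. Scaled to effective library size, control ileum held 0.708% of the control duodenal level (exact binomial 95% interval 0.0852 to 2.59%), and mutant ileum 4.68% of the mutant duodenal level (1.25 to 12.3%). The intervals cover counting error only. In controls Hamp2 passed the filter on low counts only through the duodenum, where it was high. Its regional difference in controls was called (adjusted p = 0.000209, edgeR). In mutants Hamp2 did not pass the filter on low counts, and with no filter its adjusted p was 0.1 (edgeR). Hamp, the hepcidin gene of the liver, held 1 count in all 16 libraries together.

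Hamp2 was high where acinar RNA was high. Across the 8 duodenal libraries its CPM rose with the acinar share of counts, with Pearson r = 0.888 (exact permutation p = 0.00402, two-sided; 0.0362 adjusted over the 9 iron genes computed) and Spearman rho = 0.905 (exact permutation p = 0.00456; adjusted 0.0411). Without the 2 libraries farthest from the median acinar share r was 0.876. The duodena of NF17 and NFVCT190, with 16.5 and 20.8% acinar counts, held the most Hamp2, and those of NFVCT38 and NFVCT153, with 2.01 and 2.34%, the least. The adjusted p of Pearson's r was 0.571 or more for each of the other 8 members. Neither genotype alone has the 6 libraries needed for a correlation. Across the mutant duodena Hamp2 kept the order of the acinar shares, and across the control duodena NF29 and NF32 exchanged places. The source of the Hamp2 transcripts was not tested.

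**Figure D3:**
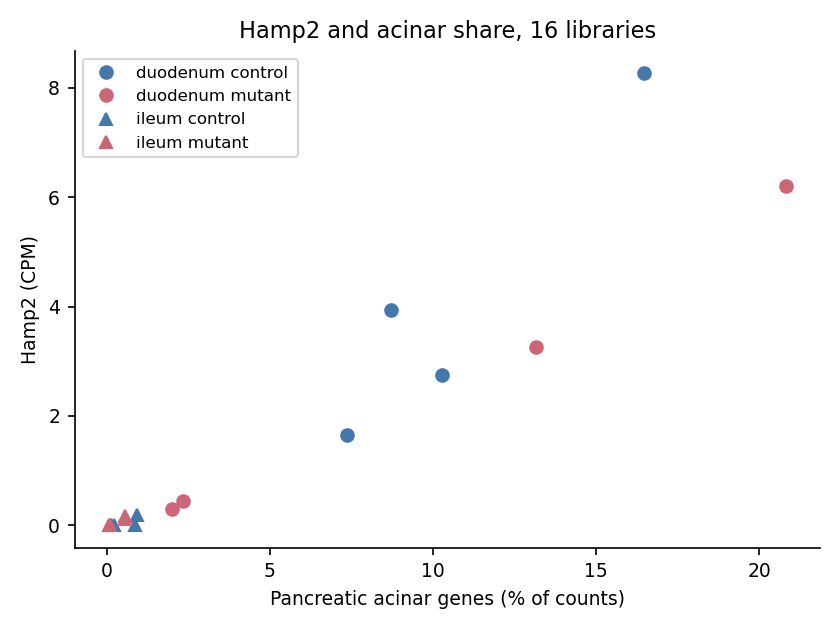
Hamp2 CPM (vertical axis) against the share of all counts taken by 17 pancreatic acinar genes (horizontal axis, %) in the 16 libraries; circles are duodenum, triangles ileum, blue controls and red mutants. Libraries with under 3% acinar counts lie below 0.5 CPM, and those above 7% lie between 1.65 and 8.27 CPM.

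The comparison the mutation was made for, mutant against control, showed no called iron gene in the duodenum. Of 14703 genes, 0.394% were called there, and none of the 9 members was among them (0 also with DESeq2 and limma-voom). All 9 log2 fold changes were below 0 and their median was -0.49, against -0.00 over all genes tested. This was not particular to the members. All 8 enterocyte genes (median -0.48), all 5 proximal identity genes (-0.49) and all 8 macrophage genes tested (-0.44) were below 0 too. All 9 epithelial, 8 smooth muscle and 4 tested erythroid genes were above 0. At an unadjusted p under 0.05 stood 3 members, Slc40a1, Tfrc and Hmox1, in a comparison where 8.71% of all genes did. The mutant mean of Slc40a1 was 451 ± 84 CPM and the control mean 719 ± 254 CPM (SD, n = 4), and the log2 fold change was -0.68 (SE 0.25, adjusted p = 0.423, edgeR). For Tfrc the means were 160 ± 41.3 and 222 ± 23.8 CPM (log2 fold change -0.49, SE 0.17, adjusted p = 0.383, edgeR). For Hmox1 they were 1.45 ± 0.302 and 2.35 ± 0.664 CPM (log2 fold change -0.70, SE 0.28, adjusted p = 0.464, edgeR). The libraries of the genotypes overlapped for every member, while 2.77% of all genes were lower and 2.77% higher without overlap: the 3 lowest Tfrc levels were mutant, but NFVCT153 lay above NF17 and NF152.

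The other 6 duodenal differences were smaller against their errors. Fth1 was at 3404 ± 1047 CPM in mutants and 4712 ± 1327 CPM in controls (log2 fold change -0.48, SE 0.30). The log2 fold change was -0.26 (SE 0.18) for Ftl1, -0.19 (SE 0.20) for Heph, -0.78 (SE 0.59) for Cybrd1 and -0.81 (SE 0.999) for Hamp2, with adjusted p between 0.757 and 0.918 for these 5 genes (edgeR). Slc11a2 was level, at 134 ± 21.3 against 137 ± 50.3 CPM (log2 fold change -0.04, SE 0.24, adjusted p = 0.988, edgeR). Its direction turned without NF17, NF29 or NFVCT27 (0.08, 0.13 and 0.03).

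Scores of other lists also differed between genotypes in the duodenum, by exact permutation p values not adjusted over the scores tested. The score of 5 proximal identity genes (mean log2 CPM) was 7.69 ± 0.18 in mutants and 8.27 ± 0.23 in controls (SD, n = 4), with no overlap (exact permutation p = 0.0286, two-sided, the smallest that 4 against 4 can give). The score of the macrophages, cells that recycle heme iron and express Slc40a1 and Hmox1, was 3.87 ± 0.33 in mutants and 4.31 ± 0.03 in controls, also with no overlap (exact permutation p = 0.0286). Their 9 listed genes summed to 207 to 392 CPM in mutants and 411 to 435 CPM in controls, with Vsig4 at 0 in both groups. None of the 8 tested was called, and all 8 were below 0. Cd163, the macrophage receptor for hemoglobin bound to haptoglobin, which the heme list holds, went the other way without overlap, at 10.7 ± 3.41 CPM in mutants and 5.79 ± 1.64 CPM in controls (log2 fold change 0.87, SE 0.26, adjusted p = 0.244, edgeR). The epithelial score (p = 0.257), the enterocyte score (p = 0.229) and the acinar share (p = 0.8) did not pass the same exact permutation test. The part of these lists in the iron gene values was not tested.

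In the ileum none of the 8 members tested was called between genotypes, where 3.28% of 14951 genes were (0 also with DESeq2 and limma-voom). Their median log2 fold change was 0.19, with 6 above and 2 below 0. Cybrd1 was the one member whose groups did not overlap, at 13.4 ± 3.17 CPM in mutants and 9.53 ± 0.523 CPM in controls (log2 fold change 0.49, SE 0.17, adjusted p = 0.147, edgeR). Over all genes 5.08% had mutants higher and 4.7% lower without overlap. Slc11a2 was at 34.1 ± 4.89 CPM in mutants and 44.5 ± 8.28 CPM in controls (log2 fold change -0.39, SE 0.14, adjusted p = 0.177, edgeR). These 2 genes were the members with an unadjusted p under 0.05, against 15.8% of all genes.

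The remaining ileal differences lay within the spread of the libraries. Slc40a1 was at 120 ± 24.4 against 98.2 ± 26.9 CPM, Tfrc at 494 ± 104 against 393 ± 130 CPM and Fth1 at 539 ± 42.9 against 489 ± 78.7 CPM (mutant against control, SD, n = 4). Ftl1 was at 33.8 ± 7.51 against 28.5 ± 8.22 CPM, Heph at 545 ± 37.6 against 508 ± 30.1 CPM and Hmox1 at 2.40 ± 0.773 against 2.59 ± 1.18 CPM. With 4 counts in mutants and 2 in controls, the ratio of Hamp2 was 2.80 with an exact binomial 95% interval of 0.401 to 31.0, so a difference was not detectable at this depth. Smooth muscle genes moved with genotype in this tissue: 6 of 8 were called higher in mutants and their score was 8.83 ± 0.17 against 8.10 ± 0.23 (exact permutation p = 0.0286), with summed levels of 4504 to 6049 against 2610 to 3788 CPM. The summed levels of other lists did not overlap either and were lower in mutants: 1540 to 2582 against 3070 to 5258 CPM for 4 distal identity genes, 7228 to 9718 against 9800 to 11967 CPM for 8 enterocyte genes and 289 to 391 against 409 to 478 CPM for 9 macrophage genes. The scores of these 3 lists, which weigh each gene equally, overlapped (exact permutation p = 0.4, 0.314 and 0.143). All 8 macrophage genes tested were below 0 and none was called, 5 having an unadjusted p under 0.05. The part of these lists in the ileal values of the iron genes was not tested. With the smooth muscle score as a covariate, Fth1 turned to -0.19 and Hmox1 to 1.31 on the log2 scale, and neither was called.

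Whether the genotype effect itself differed between tissues was tested over all 16 libraries. The fit took 4 group means and did not pair the tissues of an animal. With the animal as a block no member was called either. None of the 9 members was called, in a comparison that called 0.0441% of 15882 genes (0 also with DESeq2 and limma-voom). An unadjusted p under 0.05 was reached by 2 members, and by 4.41% of all genes. Slc40a1 came nearest, with an ileal effect 0.98 above the duodenal one on the log2 scale (SE 0.34, unadjusted p = 0.00989, adjusted p = 0.801, edgeR). Tfrc followed at 0.82 (SE 0.30, adjusted p = 0.897, edgeR). The genotype differences of Slc40a1 in the tissues are thus not shown to differ.

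The rest of the iron pathway was read from 6 lists of other genes. In the duodenum no gene of any list was called between genotypes (edgeR). An unadjusted p under 0.05 was reached there by 1 of 15 uptake and transport genes, 2 of 13 sensing, 2 of 16 hypoxia, 2 of 18 heme, 0 of 16 iron-sulfur and 2 of 11 NRF2 genes, beside 8.71% of all genes. In the ileum 4 of 16 genes of the hypoxia list were called higher in mutants and none lower, where 1.77% of all genes were called higher and 1.51% lower. Its median log2 fold change was 0.29, against -0.01 over all genes. These genes matter to iron because Epas1, the hypoxia factor of the enterocyte, is known to drive Slc11a2, Cybrd1 and Slc40a1 when iron is low.

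Egln3, a prolyl hydroxylase that marks hypoxia factors for breakdown and is itself one of their targets, stood at 108.9, 71.4, 92.8 and 40.4 CPM in mutant ileum and between 15.4 and 24.8 CPM in control ileum. All mutants were above all controls (log2 fold change 1.98, SE 0.33, adjusted p = 0.0222, edgeR). Adm, the vasodilator adrenomedullin, stood at 6.45, 8.79, 5.19 and 6.12 CPM in mutant ileum against 2.25, 3.56, 3.10 and 2.63 CPM in control ileum (log2 fold change 1.23, SE 0.22, adjusted p = 0.00808, edgeR). Hif1a, the general hypoxia factor, changed by 0.59 (SE 0.15, adjusted p = 0.0436, edgeR) and Epas1 by 0.37 (SE 0.09, adjusted p = 0.0466, edgeR) on the log2 scale. Epas1 stood at 78.7, 72.2, 80.1 and 71.1 CPM in mutants and 59.4, 58.8, 56.7 and 57.8 CPM in controls. Hif1a ran from 128.1 to 222.2 CPM in mutants and from 112.7 to 130.8 CPM in controls, so its groups overlapped.

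These calls lay near the threshold. Leaving out 1 library at a time, Epas1 lost its call in 8 of 8 fits, Hif1a in 7 and Egln3 in 5, with adjusted p up to 0.119, 0.135 and 0.0779, and Adm kept its call in all 8. Epas1 and Hif1a also missed it with limma-voom (adjusted p 0.0551 and 0.0630), with the epithelial score as a covariate (0.0615 and 0.0821) and in a fit over all 16 libraries (0.111 and 0.0556), as did Epas1 with no filter (0.0606). With the smooth muscle score as a covariate none of the 4 was called (adjusted p 0.487 to 0.822), in a fit that called 14 genes in all. That score did not overlap between genotypes, and the errors grew: Egln3 stood at 1.85 (SE 0.89) and Adm at 1.63 (SE 0.52), while Hif1a stood at 0.36 (SE 0.35) and Epas1 at 0.25 (SE 0.21).

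**Figure D4:**
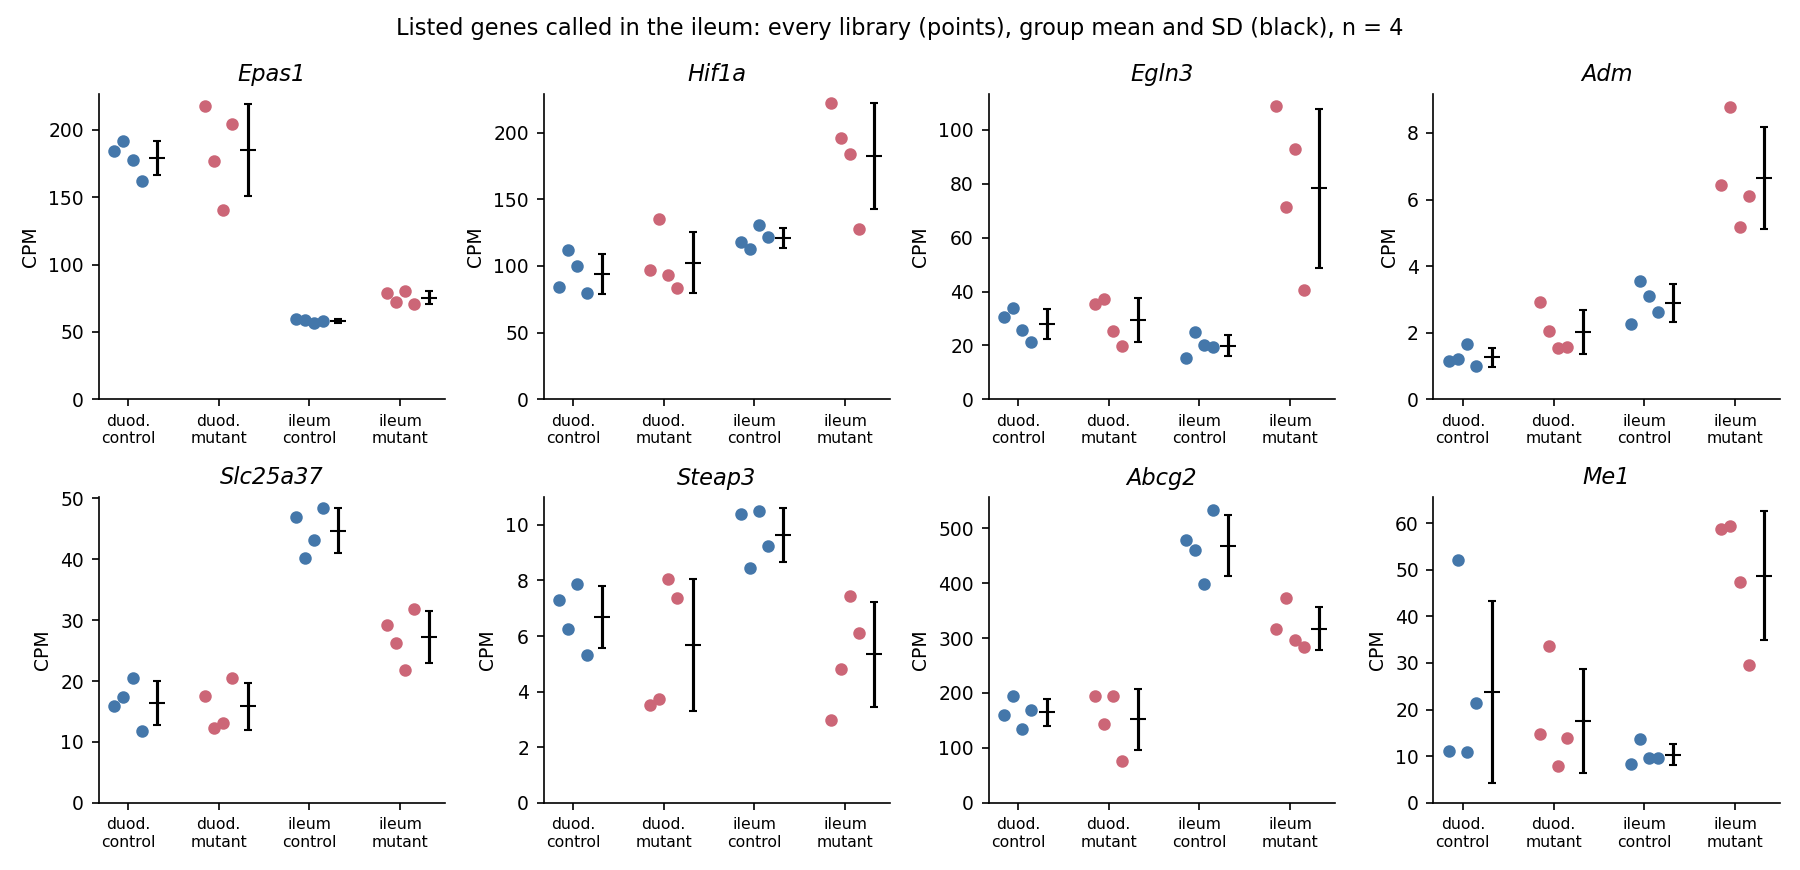
CPM of the 8 listed genes called between genotypes in the ileum, in all 16 libraries by tissue and genotype (vertical axes from 0, scales differing between genes); points are libraries and black bars the group mean and SD. Egln3, Adm and Me1 stand higher in all 4 mutant ilea than in any control ileum, and Slc25a37, Steap3 and Abcg2 stand lower.

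Other lists held at most 2 called genes each in the ileum, where 1.77% of all genes were called higher and 1.51% lower. In the list of iron uptake and transport 2 of 15 were lower in mutants: Slc25a37, the mitochondrial iron importer mitoferrin, at 27.2 ± 4.30 against 44.7 ± 3.72 CPM (log2 fold change -0.72, SE 0.12, adjusted p = 0.00584, edgeR), and Steap3, a ferric reductase of endosomes, at 5.34 ± 1.90 against 9.64 ± 0.979 CPM (-0.86, SE 0.22, adjusted p = 0.0486, edgeR). The call of Steap3 was lost in 7 of 8 fits without 1 library. Of 19 heme genes Abcg2, an exporter of porphyrins and many drugs, was lower (-0.57, SE 0.12, adjusted p = 0.0169, edgeR). Of 11 NRF2 genes the malic enzyme Me1, which also serves fat synthesis, was higher, at 48.8 ± 13.9 against 10.3 ± 2.27 CPM (2.24, SE 0.24, adjusted p = 0.000894, edgeR). No gene was called among 16 of iron-sulfur cluster assembly or 13 of iron sensing (edgeR). Of these lists 0 and 3 genes had an unadjusted p under 0.05, beside 15.8% of all genes. With the smooth muscle score as a covariate Slc25a37, Steap3, Abcg2 and Me1 were not called (adjusted p 0.482 to 0.708), and in a fit over all 16 libraries Steap3, Abcg2 and Me1 missed the threshold (adjusted p 0.111, 0.194 and 0.0523). Log2 fold changes with the covariate were 2.30 (SE 0.65) for Me1, -1.38 (SE 0.46) for Steap3, -0.45 (SE 0.26) for Abcg2 and -0.43 (SE 0.26) for Slc25a37. Over all 16 libraries they were 2.26 for Me1, -0.84 for Steap3 and -0.55 for Abcg2.

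Along the intestine of controls the same lists moved widely, as did 35.9% of all genes. Of the uptake and transport list 6 of 15 were higher and 6 lower in the ileum. Slc39a14, a zinc and iron importer, and Slc25a28, the other mitoferrin, were lower (log2 fold changes -1.42, SE 0.11, and -1.37, SE 0.14), while Slc25a37 and the ferroxidase ceruloplasmin, Cp, were higher (1.44, SE 0.15, and 0.78, SE 0.13). Ncoa4, the receptor that delivers ferritin for breakdown, had the lowest value of the list (-2.67, SE 0.40, adjusted p = 0.00197, edgeR), the same direction as Fth1. Of 19 heme genes 8 were lower and 4 higher. The lowest was Slc46a1, first described as a heme carrier and best known as the proton-coupled folate transporter, at 26.6 ± 6.31 CPM in ileum and 464 ± 167 CPM in duodenum (-4.13, SE 0.28, adjusted p = 3.96e-06, edgeR). Cpox and Blvrb, enzymes of heme synthesis and of biliverdin reduction, were lower too (-1.19, SE 0.10, and -1.13, SE 0.12), and Abcg2 was higher (1.49, SE 0.14).

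Of the iron-sulfur genes 8 of 16 were lower in control ileum and none higher, with a median of -0.42. The glutaredoxin Glrx5 (-0.80, SE 0.13) and the cysteine desulfurase Nfs1 (-0.48, SE 0.11) were among them. Of 13 sensing genes 2 were lower and 2 higher. Ireb2, which encodes an iron regulatory protein that binds the hairpins above, was at 84.9 ± 9.19 CPM in ileum and 208 ± 62.5 CPM in duodenum (-1.31, SE 0.18, adjusted p = 0.000151, edgeR). Of 16 hypoxia genes 6 were lower and 3 higher. Epas1 was among the lower ones (-1.64, SE 0.10), with Car9 (-1.77, SE 0.14) and Vegfa (-1.05, SE 0.12), targets of hypoxia factors. Adm was among the higher ones, at 2.25 to 3.56 CPM in control ileum and 1.01 to 1.65 CPM in control duodenum. Of 11 NRF2 genes 5 were lower and 2 higher, Nqo1 (-1.01, SE 0.16) and Txnrd1 (-0.92, SE 0.16) among the lower.

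**Figure D5:**
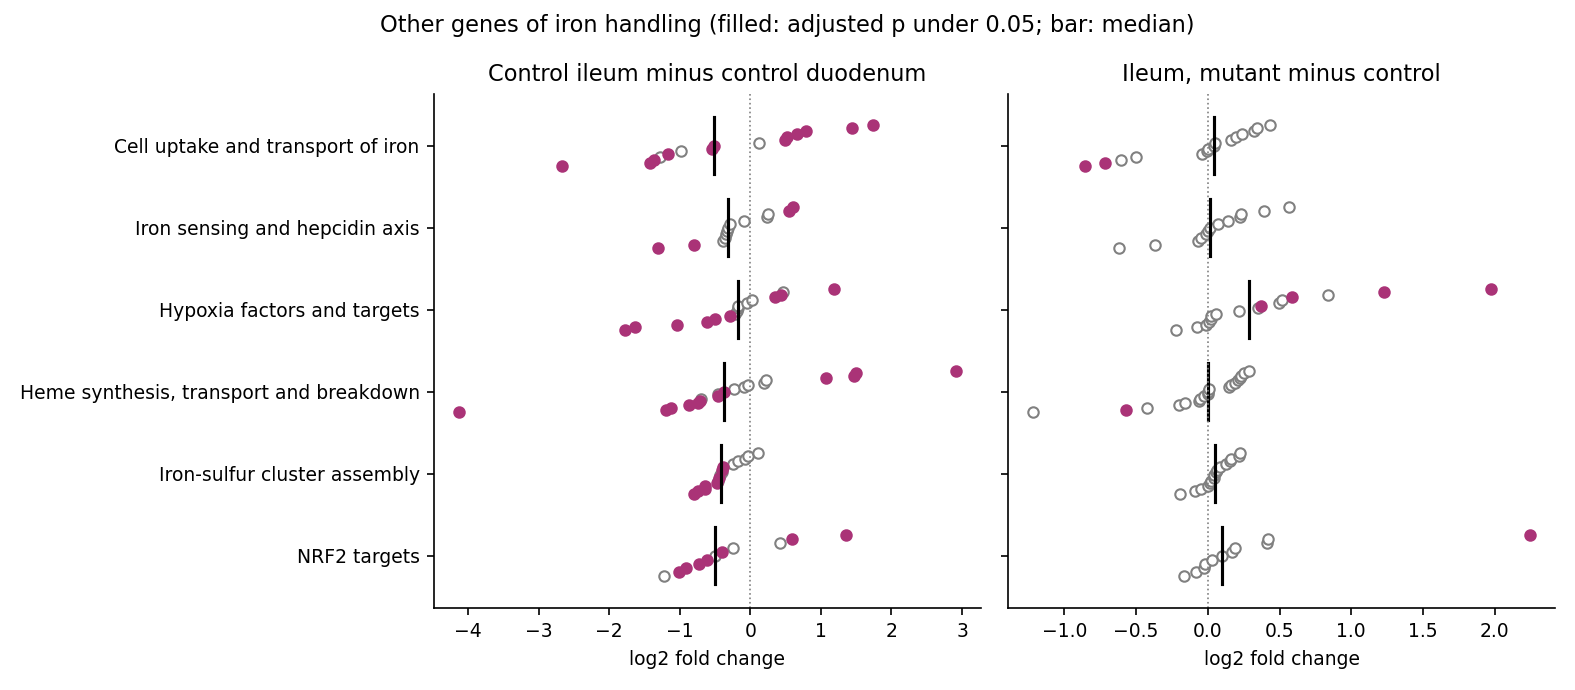
Log2 fold changes (horizontal axes) of the other iron-handling genes, 1 row per list, in control ileum against control duodenum (left) and in mutant against control ileum (right); each point is a gene, filled where the adjusted p was under 0.05, and the black bar is the median of the list. On the left the called iron-sulfur genes all lie below 0, and on the right 4 hypoxia genes are filled above 0.

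The same lists were counted in mutants, where 32.3% of all genes were called. Lower and higher in mutant ileum were 4 and 3 of 15 uptake and transport genes, 3 and 2 of 13 sensing genes, 4 and 4 of 16 hypoxia genes, 8 and 3 of 19 heme genes, 8 and 0 of 16 iron-sulfur genes, and 5 and 3 of 11 NRF2 genes. Ncoa4 was again among the lower genes (-2.22, SE 0.23, adjusted p = 5.94e-05, edgeR), as was Slc46a1 (-3.51, SE 0.31, adjusted p = 5.04e-05, edgeR). Adm was called higher in mutant ileum than in mutant duodenum (1.72, SE 0.26, adjusted p = 0.000542, edgeR), as it was between the tissues of controls.

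Set in order per kilobase of exon, Fth1 was the most abundant member in every group. In control duodenum it was followed by Slc40a1, Heph, Ftl1, Tfrc, Slc11a2, Hamp2, Cybrd1 and Hmox1. This order depends on the exon lengths used. The places of Fth1 and Ftl1 could also depend on how multi-mapping reads were counted, which is not known here. In the order of its group means Slc40a1 ran from control duodenum over mutant duodenum and mutant ileum to control ileum. The duodenal groups overlapped each other, the ileal groups overlapped each other, and every duodenal library lay above every ileal one. The same separation of tissues held for Fth1, Slc11a2 and Hamp2, and in the opposite direction for Tfrc. For Heph, Hmox1 and Ftl1 all neighbouring groups in the order overlapped, and for Cybrd1 all but the last pair, mutant and control ileum.

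Promoter sequences of 300 bases around the start site (RefSeq, GRCm38.p6) were listed for 5 of the 9 members, Cybrd1, Tfrc, Hamp2, Fth1 and Ftl1. The hypoxia core ACGTG, searched on both strands, was present in that of Tfrc and is present in 19.6% of all 32851 listed promoters. The antioxidant motif TGACNNNGC, searched on both strands, was found in none of the 5 and is found in 12.4% of all.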

How the data were processed

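Counts per Ensembl gene were deposited by the authors as 1 table of raw, unnormalised read counts; per the labels' protocols the libraries came from total RNA depleted of ribosomal RNA and kept strand. Build mm39 and, as tools, HTSeq 0.6.1p1, STAR 2.5.3a, Bowtie2 2.2.8, cutadapt 1.10 and bcl2fastq 2.20.0.422 are listed in the submitters' processing notes. The sources used here give neither their order nor the strand setting or gene models of the counting, so antisense overlap could touch single genes. Symbols matched 52083 identifiers (98.3% of counts).

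Groups came from the labels. Tests used edgeR 4.0.16 in R 4.3.3 (TMM, filterByExpr, robust quasi-likelihood F test, Benjamini-Hochberg over all genes tested), within a tissue, within a genotype, or over all 16 libraries for the difference of effects, and were tested on simulated data. The main fits did not pair the tissues of an animal. CPM used TMM factors over all 16 libraries. Marker scores are the mean log2 CPM of a list with a prior count of 1. Their permutation p values were not adjusted for the number of scores and tissues tested. Alternatives were RLE scaling, DESeq2 1.42.0, limma-voom (limma 3.58.1), no filter, acinar genes left out, score covariates, an animal block and leaving out libraries. All members were named. Other genes were drawn from the called genes of each list, or from the 4 of smallest p where more were called. For the differences between tissues only some of the genes so drawn are given. Ncoa4 and Adm in controls, Cd163 and the Hamp count were added after their values were seen. The members and lists were chosen with earlier results of these data known. Same-numbered libraries share an animal. Deviations from group means correlated at 0.158 to 0.408 between an animal's tissues (8 animals, 14243 genes). The highest correlation of a duodenum with the ileum of another animal was lower, except for NFVCT190 (0.236 against 0.210 with its own). No 2 libraries agreed within sampling noise.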

Additional observations from a re-analysis of the deposited data

Results flagged for a closer look

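Among groups of 4 libraries, 3 had 1 library far from the others by Dixon's test, all of them groups of members. The 66 groups tested were of the members, without Hamp2 in the ileum, and of the other listed genes called between genotypes in the ileum. Chance alone gives about 1 in 20. Heph in control duodenum was highest in NF29, at 675.2 CPM, where the other animals lay between 521.6 and 534.9. Tfrc in control ileum was highest in the same animal, at 587.3 CPM, against 319.1 to 338.2 in the others. Hmox1 in control ileum was highest in NF152, at 4.35 CPM, against 1.83 to 2.14.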

How the results depend on the processing

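The number of members called was 6 between tissues in controls, 5 in mutants and 0 for both genotype comparisons and their difference, and moved under an alternative only to 6 in mutants with DESeq2, or with 1 library left out (6 to 7 in controls, 5 to 6 in mutants, 0 to 0 elsewhere). With the animal as a replicate block the counts were 6, 5 and 0, and no member's call changed; all genes called for the difference of effects went from 7 to 16. Directions turned only for members that were not called. Slc11a2 between genotypes in the duodenum went to 0.0052 with limma-voom and to 0.11 without the most acinar-rich library of either genotype, and ran from -0.24 to 0.13 with 1 library left out. Hmox1 in the ileum went to 0.040 with the epithelial score and 1.31 with the smooth muscle score as a covariate, and ran from -0.26 to 0.28. Fth1 in the ileum went to -0.19 with the smooth muscle score. In mutants between tissues, Heph went to -0.0047 without both acinar-rich duodena and ran from -0.055 to 0.22, and Cybrd1 from -0.29 to 0.054; in controls Hmox1 ran from -0.24 to 0.31. The genotype difference of the duodenal acinar share ran from -4.87 to 1.40 percentage points, and that of the ileal epithelial score from -0.0037 to 0.089. The cause was not tested for any of these. Calls over all genes moved more. In the duodenum 58 became 297 with DESeq2, 169 with no filter, 151 with all 16 libraries, 31 without the acinar-rich pair and 27 to 61 with 1 library left out. In the ileum 490 became 878 with DESeq2, 1096 with no filter, 14 with the smooth muscle score and 272 to 472 with 1 library left out. For the difference of effects 7 became 39 with DESeq2, 15 with no filter and 3 to 13 with 1 library left out. The leaving out of acinar-rich libraries was chosen after seeing the data. With 4 animals a group and SEs of 0.10 to 0.59 for genotype differences other than Hamp2, small changes cannot be told from none.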

Other observations

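The genes whose levels moved most like a member's were found from deviations from the 4 group means over the 16 libraries, among 13235 genes with at least 1 CPM on average. They are given as a description only, since libraries of the same depth and tissue makeup share such deviations. Those for Heph included Slc5a1 (r = 0.970), the sugar cotransporter SGLT1, and Gucy2c (0.967), the guanylin receptor, both genes of the intestinal epithelium. For Slc40a1 they were Ptgr1 (0.919), Abcc2 (0.901) and Aldh3a2 (0.900). For Hamp2 they were Extl3 (0.924), Glp1r (0.920), the receptor of an incretin hormone, and Gnmt (0.919), a methyltransferase known from liver and exocrine pancreas. For Fth1 the nearest gene was Hcfc1r1 (0.897), for Ftl1 Nr2c2ap (0.905), for Tfrc Foxred1 (0.872), for Slc11a2 Lrrc3 (0.841), for Cybrd1 Ctse (0.869) and for Hmox1 Bet1 (0.965). Between members the highest of these correlations were 0.755 for Slc11a2 with Ftl1, 0.698 for Slc40a1 with Fth1 and 0.695 for Heph with Fth1.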
